A study of Mus musculus with 10 samples.

Results

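The ephrins, Slits, netrins and their receptors of the E18.5 mouse anterior fontanelle (AF) form a set of 41 protein-coding genes among the 23080 genes of the count table. They were chosen by symbol alone, as every Eph receptor, ephrin, Slit, Robo, netrin, netrin-G and UNC5 gene of the table together with *Dcc* and *Neo1*. The set holds 17 genes for ligands and netrin-G proteins and 24 for receptors. The AF is the soft gap between the frontal and parietal bones of the young skull. The piece taken for RNA held fibrous tissue of the suture together with bone, and the dissection left out skin and brain. RNA of the whole tissue was sequenced in 5 libraries of genotype WT and 5 of genotype Wnt1-Cre; Fgfr2fl/fl, all from E18.5 embryos. Wnt1-Cre drives Cre recombinase in the neural crest, which forms the frontal bones and the AF mesenchyme, so the design aims at recombining the floxed *Fgfr2* alleles in cells of that origin and not in endothelium, blood or other cells of mesodermal origin. The recombination itself was not measured in these libraries. The labels call the controls WT. The study describes 5 control and 5 mutant libraries as pairs of littermates, without saying which libraries form a pair or whether the controls carried floxed alleles. The p-values therefore measure the spread between these libraries.

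Eph receptors are the largest family of receptor tyrosine kinases, and they are switched on by ephrins held in the membrane of a neighbouring cell. A-type ephrins are fixed by a lipid anchor, while B-type ephrins span the membrane and pass a signal back into the cell that carries them, so that contact can sort cells and keep neighbouring tissues apart. Slits are secreted proteins that repel cells through Robo receptors. Netrins are secreted relatives of laminin that attract cells through DCC or neogenin and repel them through UNC5 receptors, and neogenin also binds RGM proteins and takes part in BMP signalling. These families are best known from axon guidance and from the wiring of blood vessels. In the skull, ephrin-B1 is the product of the gene altered in craniofrontonasal syndrome, and EphA4 with ephrin-A ligands is known from the boundary of the coronal suture.

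The promoter windows of 3 genes are printed first, because these genes lie among the 7 with the lowest p-values below and their windows hold no annotated exon of any gene. Each window is the 250 bases before the RefSeq start of the gene on GRCm38.p6, written 5′ to 3′ on the strand of the gene, which is the minus strand for all 3. Capitals mark GGGCGG or TATAAA read on either strand, where TATAAA appears as TTTATA if it lies on the opposite strand.
Efnb2, chr8:8661243-8661492: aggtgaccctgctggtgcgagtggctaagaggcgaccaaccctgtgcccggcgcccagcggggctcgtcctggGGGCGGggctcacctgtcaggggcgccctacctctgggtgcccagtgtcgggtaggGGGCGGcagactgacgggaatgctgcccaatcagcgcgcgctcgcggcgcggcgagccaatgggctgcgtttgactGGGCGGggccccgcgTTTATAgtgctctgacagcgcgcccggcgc
Ephb2, chr4:136836013-136836262: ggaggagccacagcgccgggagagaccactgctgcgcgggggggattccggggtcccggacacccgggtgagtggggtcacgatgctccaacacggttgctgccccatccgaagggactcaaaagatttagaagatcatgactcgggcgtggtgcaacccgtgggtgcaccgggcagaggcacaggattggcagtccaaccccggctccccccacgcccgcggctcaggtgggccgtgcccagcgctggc
Epha3, chr16:63864176-63864425: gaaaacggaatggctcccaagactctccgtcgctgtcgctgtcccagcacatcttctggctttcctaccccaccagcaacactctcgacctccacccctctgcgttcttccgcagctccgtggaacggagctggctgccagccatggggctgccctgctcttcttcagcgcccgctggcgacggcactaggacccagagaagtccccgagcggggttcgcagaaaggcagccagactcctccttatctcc
The *Efnb2* window held GGGCGG 3 times and TATAAA once in 250 bases with 27 CG pairs. The *Ephb2* and *Epha3* windows held 20 and 16 CG pairs and neither of these letters. Windows were found for 36 of the 41 genes and came to 41 in all. GGGCGG, the core of the GC box, stood on either strand in 28 of the 41 windows (68.3%), against 33.0% of all 32536 promoters of the same length. TATAAA stood in 2 windows (4.88%, against 12.3%), TGTGGT, the core of RUNX motifs, in 4 (9.76%, against 14.0%), and CTTTGA, a core of TCF and LEF motifs, in 2 (4.88%, against 13.9%). No motif of the 4 lies within another, and a match of letters describes the window only. The windows of these genes held a median of 17 CG pairs, against 6 over all promoters, so they are mostly of the CG-rich kind.

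The depth was 21814166 to 28515403 rounded counts in the WT-labelled libraries and 20774645 to 25748579 in the KO-labelled libraries. The guidance genes together took 0.163% to 0.198% of them, and 18.6% to 33.5% came from *CT010467.1*, a ribosomal RNA gene. The targeted gene went against its label: *Fgfr2* stood at 176 to 235 CPM (counts relative to the normalized library total) in the WT-labelled libraries and at 273 to 357 CPM in the KO-labelled libraries, a log2 fold change of 0.67 (standard error 0.090, edgeR adjusted p = 0.0487). Without KO-labelled replicate 1 the difference was 0.71 with an edgeR adjusted p of 0.117, above the threshold of 0.05, while every KO-labelled library lay above every WT-labelled one. The count covers the whole locus, so transcripts of a recombined and of an intact allele are added up. The libraries are therefore named by their labels throughout, and every direction is given by label. Of the lists of cell type markers, the 17 osteoblast genes summed to 107572 to 126596 CPM in the WT-labelled and 89498 to 128992 CPM in the KO-labelled libraries. The 12 tendon and fontanelle connective tissue genes summed to 2717 to 3208 and 2583 to 3272 CPM, with the tendon marker *Scx* at 4.27 to 8.45 CPM. At an unadjusted p under 0.05, 8 of 17 osteoblast genes were lower and none higher in the KO-labelled libraries (median log2 fold change −0.22), while 5 of 12 tendon and fontanelle connective tissue genes were higher and 1 lower (median 0.22). Of all genes tested, 3.82% were lower and 3.68% higher at that threshold. KO-labelled replicate 2 stood apart on the first principal component, which held 24.2% of the variance. Its 13 neuron genes summed to 701 CPM, against 99.1 to 315 CPM in the other libraries, and none of the 13 was at 0 in any library. In bulk tissue, fewer cells of a type and less RNA per cell cannot be told apart.

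All 41 genes gave counts in every library, and their levels spanned 3 orders of magnitude (plot of the level of each gene in each library). Levels of different genes are compared only as CPM per kilobase of the longest protein-coding transcript. On that scale neogenin stood highest: *Neo1* was at 43.0 ± 1.01 and 42.0 ± 4.67 CPM per kilobase in the WT-labelled and KO-labelled libraries (SD, n = 5 each, as in all means that follow). *Efnb1*, the gene of ephrin-B1, followed at 33.0 ± 2.50 and 33.9 ± 2.43. *Ephb4*, the receptor best known from veins, was at 28.9 ± 1.46 and 29.4 ± 2.93, *Unc5b*, a netrin receptor of endothelium and other cells, at 30.6 ± 2.04 and 27.5 ± 2.35, and *Slit3* at 29.4 ± 1.104 and 27.6 ± 3.62 CPM per kilobase. These 3 lay within the spread of each other. *Efna5* came next at 19.9 ± 1.05 and 20.4 ± 0.987 CPM per kilobase. At the low end, *Robo3*, *Epha6* and *Epha10* were at 0.0301, 0.0261 and 0.0820 CPM per kilobase in the WT-labelled libraries and rested on 1 to 19 counts per library. The filter on low counts left these 3 out, so 38 of the 41 genes were tested.

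**Figure D1:**
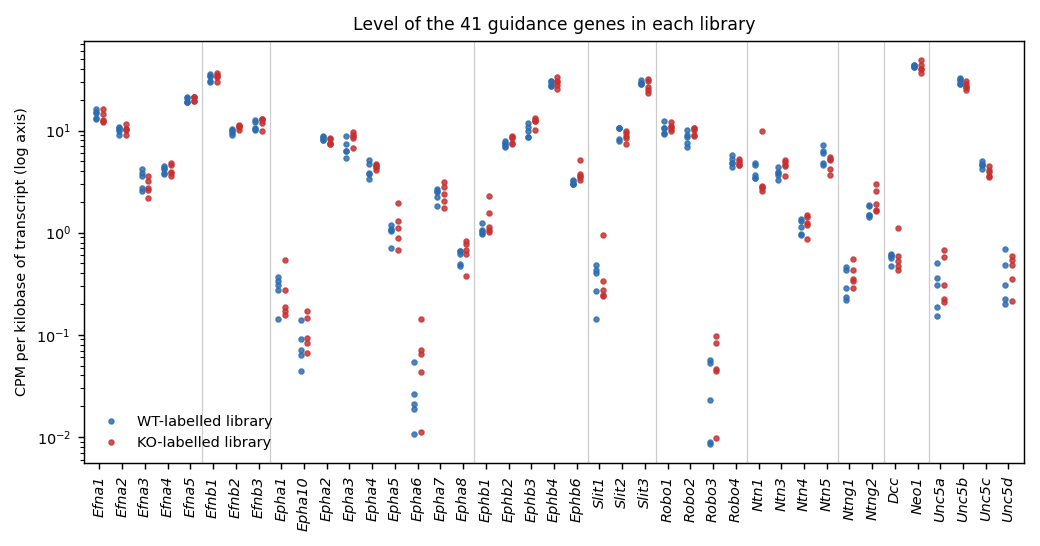
Level of each of the 41 guidance genes in each library, as CPM per kilobase of the longest protein-coding transcript on a log axis, with genes grouped by family (grey lines). Blue points are the 5 WT-labelled and red points the 5 KO-labelled libraries. *Neo1*, *Efnb1*, *Ephb4*, *Unc5b* and *Slit3* stand at the top, *Epha6* and *Robo3* at the bottom, and the points of both labels overlap in every gene.

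Each family had its own leader by the mean per kilobase over all 10 libraries. The leader took 98.6% of the DCC and neogenin sum (*Neo1*), 85.2% of the UNC5 sum (*Unc5b*), 84.0% of the netrin-G sum (*Ntng2*) and 74.8% of the Slit sum (*Slit3*). It took 60.3% of the ephrin-B sum (*Efnb1*), 55.3% of the EphB sum (*Ephb4*), 43.0% of the Robo sum (*Robo1*) and 38.9% of the ephrin-A sum (*Efna5*). In the netrin family *Ntn5* took 35.9%, and in the EphA family *Epha2* took 33.0%. In the KO-labelled libraries alone, *Epha3* (8.54 CPM per kilobase) stood above *Epha2* (7.83). The leaders over all libraries were the same genes with the union of all exons as the length, though in the KO-labelled libraries *Ntn3* (4.49) then stood above *Ntn5* (3.79 CPM per kilobase). The mean of *Ntn1* there (3.89) rested on KO-labelled replicate 1, at 9.18 against 2.41 to 2.68 CPM per kilobase in the other 4. Summed per kilobase, the ephrin-B ligands came to 54.0 ± 2.63 CPM per kilobase in the WT-labelled and 56.8 ± 2.45 in the KO-labelled libraries, and the EphB receptors that bind them to 50.5 ± 2.91 CPM per kilobase in the WT-labelled and 55.0 ± 3.67 in the KO-labelled libraries. The ephrin-A ligands came to 52.0 ± 1.85 CPM per kilobase in the WT-labelled and 51.4 ± 2.49 in the KO-labelled libraries, about the sum of the ephrin-B ligands, while the EphA receptors came to 23.9 ± 1.99 CPM per kilobase in the WT-labelled and 25.5 ± 1.01 in the KO-labelled libraries. For the secreted cues, the Slits summed to 39.4 ± 1.23 CPM per kilobase in the WT-labelled and 36.8 ± 4.11 in the KO-labelled libraries and the netrins to 14.8 ± 2.004 CPM per kilobase in the WT-labelled and 14.7 ± 3.23 in the KO-labelled libraries. Their receptors summed to 23.9 and 25.6 CPM per kilobase for Robo and to 35.9 and 32.3 for UNC5 in the WT-labelled and KO-labelled libraries.

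To ask whether the guidance genes differed between the labelled genotypes, the KO-labelled libraries were compared with the WT-labelled libraries by the quasi-likelihood test of edgeR, fitted to the 16267 genes that passed the filter. No guidance gene of the 38 tested passed an adjusted p of 0.05, which 3 genes (0.0184%) of all genes tested did. The lowest adjusted p among them was 0.485, for *Unc5c*. At an unadjusted p under 0.05, 6 of the 38 (15.8%) were higher in the KO-labelled libraries, against 3.68% of all genes tested, and 1 (2.63%) was lower, against 3.82% (plot of fitted differences). The 6 were *Efnb2*, *Ephb2*, *Ephb3*, *Ephb6*, *Epha3* and *Ntn3*, and the gene that was lower was *Unc5c*. Of the 6, 5 belong to the Eph and ephrin families. These families also hold much of the set, with 7 EphA receptors, 5 EphB receptors, 5 ephrin-A ligands and 3 ephrin-B ligands among the 38 tested. When libraries were scaled by their totals alone, 1 gene was higher (*Ephb3*) and 3 were lower (*Epha2*, *Unc5b* and *Unc5c*) at the same threshold, against 1.59% and 4.36% of all genes, and the median over all genes was −0.038. The fitted log2 fold change was above 0 in 27 of the 38 genes and below 0 in 11, with a median of 0.079, while 50.3% of all genes tested were above 0 and their median was 0.00073. In no guidance gene did the groups separate fully, which was the case in 1.48% of all genes tested.

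**Figure D2:**
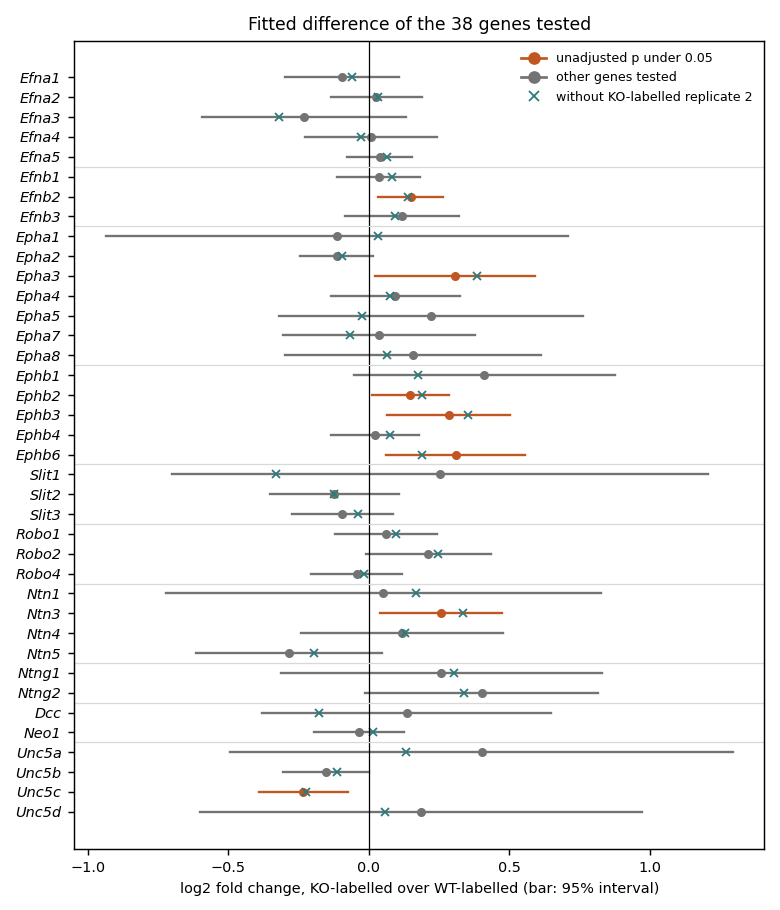
Fitted log2 fold change, KO-labelled over WT-labelled libraries, of the 38 guidance genes tested, grouped by family (grey lines), with 95% intervals from edgeR; crosses give the value without KO-labelled replicate 2. The 7 genes at an unadjusted p under 0.05 are in orange, none of the 38 passes an adjusted p of 0.05, and without that library *Dcc*, *Efna4*, *Epha5*, *Epha7* and *Slit1* cross to below 0 and *Epha1* and *Neo1* to above 0. Under scaling by library totals alone, *Efna2*, *Efna4*, *Efna5*, *Efnb1*, *Ephb4* and *Ntn1* change sign.

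Among the ephrin-B ligands and their EphB receptors, every one of the 8 genes was fitted above 0, with *Efnb1* and *Ephb4* turning below 0 under scaling by library totals alone and *Ephb4* also without KO-labelled replicate 3. *Efnb2* (chromosome 8 from 8617434 to 8661242), whose product marks arteries and binds EphB4, was at 48.5, 49.5, 43.1, 45.9 and 47.8 CPM in WT-labelled replicates 1 to 5. In KO-labelled replicates 1 to 5 it was at 51.5, 54.3, 53.2, 48.4 and 53.3 CPM. The groups overlapped only in that KO-labelled replicate 4 lay below WT-labelled replicates 1 and 2. The log2 fold change was 0.15 (standard error 0.053, 95% interval 0.03 to 0.27, edgeR p = 0.0156, adjusted p = 0.568), and a two-sided exact permutation test over all groupings of the libraries gave p = 0.0238, where the lowest possible is 0.00794. *Efnb1*, the most abundant ephrin per kilobase, was at 112, 97.3, 101, 116 and 112 CPM in the WT-labelled libraries and at 111, 97.4, 118, 115 and 109.6 CPM in the KO-labelled libraries. These values interleave, and the fitted difference of 0.04 had a 95% interval of −0.11 to 0.18. *Efnb3* was at 32.1 to 40.2 CPM in the WT-labelled and 31.3 to 41.8 CPM in the KO-labelled libraries, with a 95% interval of −0.08 to 0.32.

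*Ephb3* (chromosome 16 from 21204755 to 21223305), a further receptor of the B-type ephrins, was at 51.6, 56.0, 47.2, 41.2 and 41.5 CPM in the WT-labelled libraries. In the KO-labelled libraries it was at 59.2, 47.6, 63.4, 60.6 and 58.7 CPM. Of the KO-labelled libraries, only replicate 2 lay within the WT-labelled range. The log2 fold change was 0.28 (standard error 0.10, edgeR p = 0.0149, adjusted p = 0.564, exact permutation p = 0.0476). *Ephb2* (chromosome 4 from 136647539 to 136835988), which binds the same ligands, was at 86.0, 81.8, 80.5, 75.9 and 77.1 CPM in the WT-labelled and 95.01, 80.4, 95.7, 82.2 and 91.8 CPM in the KO-labelled libraries. KO-labelled replicates 1, 3 and 5 lay above the WT-labelled libraries, and replicates 2 and 4 lay within their range. This gave a log2 fold change of 0.15 (standard error 0.063, edgeR p = 0.0365, adjusted p = 0.649, exact permutation p = 0.0635). *Ephb6* (chromosome 6 from 41605482 to 41620509), an Eph receptor without kinase activity, was at 12.2, 11.2, 11.3, 12.5 and 11.3 CPM in the WT-labelled and 12.4, 19.3, 14.1, 13.5 and 13.1 CPM in the KO-labelled libraries. KO-labelled replicate 2 lay above the rest, and only KO-labelled replicate 1 lay within the WT-labelled range. The log2 fold change was 0.31 (standard error 0.11, edgeR p = 0.0183, adjusted p = 0.593, exact permutation p = 0.0159), and 0.19 without KO-labelled replicate 2. *Ephb4*, the leader of the family, was at 132, 132, 119, 124 and 119.6 CPM in the WT-labelled and 132, 110.0, 144, 129.6 and 121 CPM in the KO-labelled libraries. The KO-labelled values spread to both sides of the WT-labelled ones, and the fitted difference of 0.02 had a 95% interval of −0.13 to 0.18. Exons of *Ephb4* overlap *Zan*, and those of *Ephb1* overlap *Gm26846*, on the opposite strand, and the use of strand in the counting is not given in the sources used here.

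**Figure D3:**
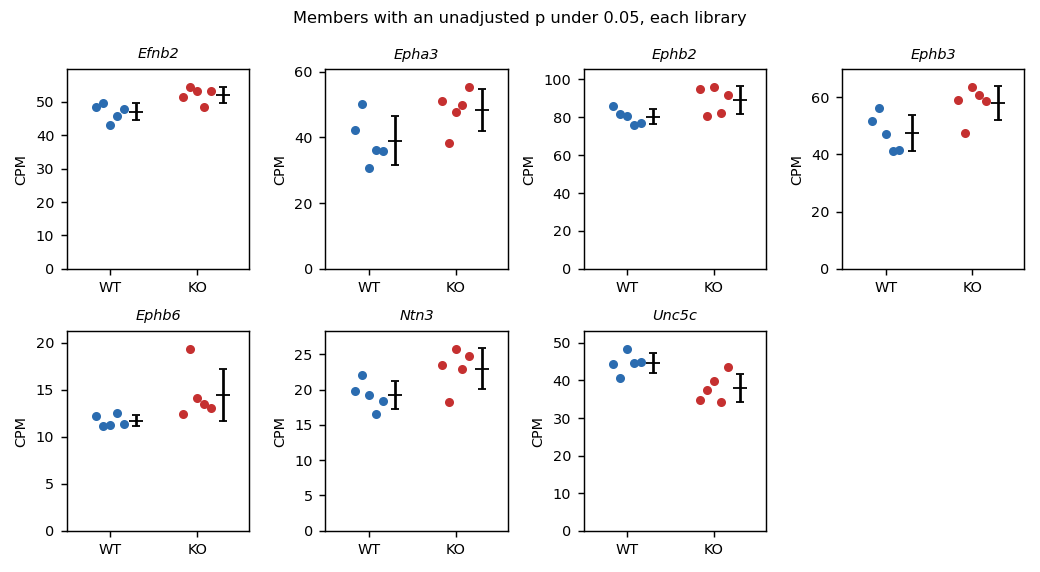
CPM of the 7 guidance genes with an unadjusted p under 0.05 in each library (points) with the mean and SD of each label (bar, n = 5 each); each axis starts at 0. The WT-labelled and KO-labelled points overlap in all 7 panels, *Unc5c* is lower and the other 6 are higher in the KO-labelled libraries.

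Among the EphA receptors, *Epha3* (chromosome 16 from 63543534 to 63864175), known from mesenchyme and from axon repulsion, was at 42.3, 50.3, 30.6, 36.1 and 35.8 CPM in the WT-labelled libraries. In the KO-labelled libraries it was at 50.9, 38.2, 47.6, 49.7 and 55.2 CPM. WT-labelled replicate 2 lay above all KO-labelled libraries but replicates 1 and 5, and KO-labelled replicate 2 lay below WT-labelled replicates 1 and 2. The fitted log2 fold change was 0.31 (standard error 0.13, edgeR p = 0.0366, adjusted p = 0.649, exact permutation p = 0.0714). *Epha2*, the leader of the family by the mean over all libraries and a receptor of bone and epithelial cells, was at 31.8, 34.1, 35.0, 33.3 and 31.7 CPM in the WT-labelled and 28.8, 29.6, 32.7, 28.6 and 33.5 CPM in the KO-labelled libraries. Of the KO-labelled libraries, replicates 3 and 5 lay within the WT-labelled range and the other 3 lay below it, with a fitted difference of −0.11 (95% interval −0.24 to 0.02, edgeR p = 0.0780, exact permutation p = 0.0873). *Epha4*, the receptor known from the coronal suture boundary, was at 30.0, 32.5, 24.5, 23.9 and 21.3 CPM in the WT-labelled and 26.2, 30.1, 29.02, 28.0 and 27.9 CPM in the KO-labelled libraries. All 5 KO-labelled values lay inside the WT-labelled range, and the 95% interval of the difference was −0.13 to 0.32. The other EphA receptors tested were *Epha7*, at 12.3 to 18.0 and 11.7 to 21.03 CPM, *Epha5*, at 5.19 to 8.78 and 4.92 to 14.3 CPM, *Epha8*, at 2.24 to 3.15 and 1.76 to 3.90 CPM, and *Epha1*, at 0.468 to 1.20 and 0.517 to 1.76 CPM in the WT-labelled and KO-labelled libraries. *Epha1* overlaps *Zyx* on the opposite strand. For all 4 the ranges overlapped, and their 95% intervals reached from −0.94 (*Epha1*) to 0.76 (*Epha5*).

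The ephrin-A ligands showed no gene at an unadjusted p under 0.05. *Efna5*, which leads the family per kilobase, was at 85.6, 77.4, 77.7, 76.1 and 83.6 CPM in the WT-labelled and 77.9, 78.0, 85.2, 85.3 and 85.1 CPM in the KO-labelled libraries. The values of both labels covered nearly the same range, and the difference of 0.04 had the narrowest 95% interval of the family, −0.08 to 0.16. *Efna1*, *Efna3* and *Efna4* are neighbours on chromosome 3, with 32756 bases between *Efna1* and *Efna3* and 10424 between *Efna3* and *Efna4*, all on the minus strand. *Efna1* was at 21.3 to 26.7 and 19.96 to 26.4 CPM and *Efna3* at 6.04 to 9.91 and 5.22 to 8.47 CPM, with log2 fold changes of −0.09 (95% interval −0.30 to 0.11) and −0.23 (−0.59 to 0.13). *Efna4* was at 5.97 to 7.24 and 5.76 to 7.70 CPM and *Efna2*, on chromosome 10, at 19.2 to 23.1 and 19.3 to 24.8 CPM. Their log2 fold changes of 0.01 and 0.03 changed sign under other settings. Exons of *Efna3* and *Efna4* overlap *Gm15998* and *4731419I09Rik*, which run the other way.

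In the Slit and Robo families no gene reached an unadjusted p of 0.05. *Slit3* (chromosome 11 from 35121224 to 35708507), the leader of the ligands and known from bone cells and vessels, was at 163, 149, 153, 153 and 149 CPM in the WT-labelled libraries. In the KO-labelled libraries it was at 166, 123, 162, 129 and 140.4 CPM. The WT-labelled libraries lay close together, while KO-labelled replicates 1 and 3 lay near the highest of them and replicates 2, 4 and 5 below all of them. The difference was −0.09 (95% interval −0.27 to 0.09). *Slit2* was at 78.7 to 106 and 73.8 to 98.2 CPM (95% interval −0.35 to 0.11), and *Slit1*, mostly a gene of neurons, at 0.817 to 2.76 and 1.37 to 5.45 CPM. Among the receptors, *Robo1*, the leader of the family, was at 80.0, 93.8, 70.0, 71.2 and 79.5 CPM in the WT-labelled and 78.8, 75.5, 83.6, 82.1 and 91.8 CPM in the KO-labelled libraries. All KO-labelled values lay inside the WT-labelled range, with a difference of 0.06 (95% interval −0.12 to 0.24). *Robo2*, its neighbour on chromosome 16 at a distance of 845743 bases, was at 58.8 to 87.6 and 75.7 to 90.7 CPM, with a difference of 0.21 (95% interval −0.01 to 0.44, edgeR p = 0.0604, exact permutation p = 0.0794). *Robo4*, the Robo receptor of endothelium, was at 21.6 to 28.4 and 22.8 to 26.0 CPM, with a difference of −0.04 (95% interval −0.20 to 0.12). Beside it, the 15 endothelial marker genes summed to 922 to 1119 CPM in the WT-labelled and 902 to 1102 CPM in the KO-labelled libraries, and 1 of them, *Erg*, reached an unadjusted p under 0.05. *Robo3*, which lies 553 bases from *Robo4* on the opposite strand, had 1 to 11 counts per library and was not tested.

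*Unc5c* (chromosome 3 from 141465216 to 141834924), a receptor through which netrin repels, had the lowest p-value of the 38 genes. It was at 44.5, 40.7, 48.3, 44.8 and 45.0 CPM in the WT-labelled libraries. In the KO-labelled libraries it was at 34.9, 37.5, 39.8, 34.2 and 43.5 CPM. KO-labelled replicate 5 lay within the WT-labelled range, and the other 4 lay below it. The log2 fold change was −0.23 (standard error 0.072, 95% interval −0.39 to −0.07, edgeR p = 0.00766, adjusted p = 0.485, exact permutation p = 0.0159), and it lay between −0.29 and −0.19 when each library was left out in turn. Its exons share bases with *Gm15688* on the opposite strand. *Unc5b*, far more abundant per kilobase, was at 168, 181, 192, 189.6 and 166 CPM in the WT-labelled and 155, 146, 169, 155 and 182 CPM in the KO-labelled libraries. KO-labelled replicates 3 and 5 lay within the WT-labelled range and the other 3 lay below it, with a difference of −0.15 (95% interval −0.30 to 0.00, edgeR p = 0.0516, adjusted p = 0.659, exact permutation p = 0.0873). Both receptors were thus fitted lower in the KO-labelled libraries, while *Unc5a* and *Unc5d*, at 0.613 to 2.03 and 1.86 to 6.38 CPM in the WT-labelled libraries, were fitted at 0.40 and 0.19 with 95% intervals of −0.49 to 1.297 and −0.60 to 0.97. Without KO-labelled replicate 2 these became 0.13 and 0.06. *Neo1*, the most abundant receptor of the set, was at 323, 314, 312, 310.5 and 327 CPM in the WT-labelled and 294, 272, 363, 299 and 321 CPM in the KO-labelled libraries. The KO-labelled libraries lay to both sides of the WT-labelled ones, and the difference of −0.03 had a 95% interval of −0.19 to 0.13. *Dcc* was at 4.90 to 6.34 CPM in the WT-labelled and 4.42 to 11.5 CPM in the KO-labelled libraries.

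Of the netrins, *Ntn3* (chromosome 17 from 24203848 to 24209531) was at 19.8, 22.1, 19.2, 16.6 and 18.4 CPM in the WT-labelled and 23.4, 18.2, 25.7, 22.9 and 24.7 CPM in the KO-labelled libraries. KO-labelled replicate 2 lay within the WT-labelled range and the other 4 lay above it. Its log2 fold change was 0.26 (standard error 0.099, edgeR p = 0.0246, adjusted p = 0.631, exact permutation p = 0.0635). *Ntn3* shares exon bases with *Tbc1d24* on the same strand and with *BC028777* on the other, so its reads may in part be theirs, and *Tbc1d24* itself differed by 0.07 (standard error 0.092). *Ntn5*, the leader of the netrins by the mean over all libraries, was at 10.6, 12.7, 8.16, 8.38 and 11.2 CPM in the WT-labelled and 7.34, 6.44, 9.12, 9.32 and 9.76 CPM in the KO-labelled libraries. The groups overlapped from 8.16 to 9.76 CPM, the difference was −0.28 (95% interval −0.61 to 0.05), and the gene shares exon bases with *Sec1* on the opposite strand. *Ntn4*, a netrin of basement membranes, was at 3.46 to 4.97 and 3.18 to 5.39 CPM (95% interval −0.24 to 0.48). The netrin-G proteins are held in the membrane and bind NGL proteins in place of DCC. *Ntng2*, the leader of the pair, was at 2.82, 3.43, 2.81, 2.66 and 3.55 CPM in the WT-labelled and 3.06, 4.77, 5.65, 3.11 and 3.58 CPM in the KO-labelled libraries. KO-labelled replicates 2, 3 and 5 lay above the WT-labelled range, the difference was 0.40 (95% interval −0.01 to 0.82, edgeR p = 0.0564, exact permutation p = 0.111), and the gene shares exon bases with *6530402F18Rik*. *Ntng1* was at 1.23 to 2.58 and 1.59 to 3.11 CPM (95% interval −0.31 to 0.83).

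*Ntn1*, the netrin best known from axon guidance and from epithelial and vascular development, changed direction with 1 library. It lies on chromosome 11 from 68209364 to 68400823 and was at 28.4, 27.0, 20.03, 20.2 and 21.8 CPM in the WT-labelled libraries. In the KO-labelled libraries it was at 57.6, 16.5, 16.2, 16.8 and 15.1 CPM. KO-labelled replicate 1 was the highest library of all, 2.03 times the next, and the other 4 KO-labelled libraries lay below all 5 WT-labelled libraries. With all 10 libraries the log2 fold change was 0.05 (standard error 0.35, edgeR p = 0.885, adjusted p = 0.982, exact permutation p = 0.754). KO-labelled replicate 1 was left out here after its value had been seen. Without it, the log2 fold change was −0.53 (standard error 0.11, edgeR p = 7.44e-04, adjusted p = 0.355, exact permutation p = 0.0159). The permutation p is the lowest that 5 against 4 allow. It was fixed by the choice of library, because only the library left out did not lie below all WT-labelled ones. Neither test can therefore decide whether *Ntn1* differed between the labels. The mean of the other 4 KO-labelled libraries was 16.1 ± 0.743 CPM, against 23.5 ± 3.96 CPM in the WT-labelled libraries. In KO-labelled replicate 1, 29 genes of at least 5 CPM were at 2 or more times every other library, and *Ntn1* was the only guidance gene among them. The same library held the highest sum of 6 fascia fibroblast genes (*Dpp4*, *Pi16*, *Clec3b*, *Mfap5*, *Dpt* and *Tnxb*), at 408 CPM, and all 6 were highest there. Their sum was 97.4, 116, 34.9, 78.5 and 68.1 CPM in WT-labelled replicates 1 to 5 and 39.4, 28.97, 42.8 and 27.8 CPM in KO-labelled replicates 2 to 5. Among these 9 libraries the sum, like *Ntn1*, was highest in WT-labelled replicates 1 and 2, and of the WT-labelled libraries only replicate 3 lay within the range of those 4 KO-labelled libraries. Elsewhere the order differed. The sum was higher in WT-labelled replicate 4 than in replicate 5, and higher in KO-labelled replicate 4 than in WT-labelled replicate 3, while *Ntn1* was lower in both cases. KO-labelled replicate 1 also held the highest sum of 5 peripheral sensory neuron genes (*Nefh*, *Prph*, *Ret*, *Avil* and *Isl1*), at 58.2 CPM against 7.37 to 12.2 CPM, again with all 5 highest there. Both lists were written after the values were seen. Of the other marker lists, the 10 Schwann cell genes summed to 199 CPM in this library against 127 to 175 CPM elsewhere, with 7 of them highest there. The 9 skeletal muscle genes summed to 968 CPM against 25.0 to 923 CPM, with 4 highest there. The part of these cell types in the *Ntn1* value was not tested. Of the 38 genes, 4 (10.5%) were highest in this library, against 10.3% of all genes tested.

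**Figure D4:**
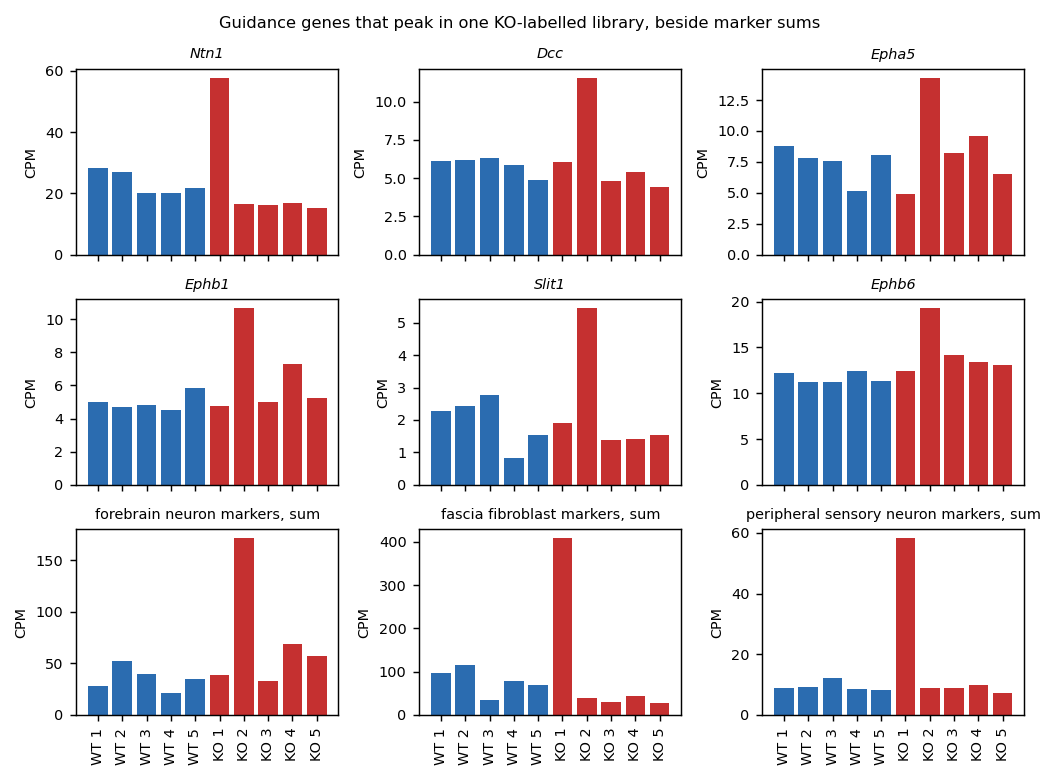
CPM in each of the 10 libraries (blue, WT-labelled; red, KO-labelled) of 6 guidance genes and, in the bottom row, the summed CPM of 3 marker lists (5 forebrain neuron, 6 fascia fibroblast and 5 peripheral sensory neuron genes). *Ntn1* and the fascia fibroblast and sensory neuron sums peak in KO-labelled replicate 1, and *Dcc*, *Epha5*, *Ephb1*, *Slit1*, *Ephb6* and the forebrain neuron sum peak in KO-labelled replicate 2.

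KO-labelled replicate 2 was left out in turn, a comparison that had been set together with the choice of the genes. Of the 38 genes, 10 (26.3%) were highest in that library, against 17.9% of all genes tested. *Dcc* was at 6.12, 6.21, 6.34, 5.84 and 4.90 CPM in the WT-labelled and 6.08, 11.5, 4.84, 5.41 and 4.42 CPM in the KO-labelled libraries. *Slit1* was at 2.26, 2.44, 2.76, 0.817 and 1.52 CPM in the WT-labelled and 1.90, 5.45, 1.37, 1.40 and 1.55 CPM in the KO-labelled libraries. For both, KO-labelled replicate 2 lay above all others, and the rest overlapped. *Ephb1* was at 5.00, 4.67, 4.80, 4.50 and 5.83 and 4.74, 10.7, 5.01, 7.28 and 5.25 CPM, and *Epha5* at 8.78, 7.79, 7.57, 5.19 and 8.03 and 4.92, 14.3, 8.22, 9.58 and 6.54 CPM, in the same order of libraries. KO-labelled replicate 2 was again the highest, followed by KO-labelled replicate 4 in both genes. All 4 genes are known from neurons of the developing brain. A list of 5 forebrain neuron genes (*Neurod2*, *Neurod6*, *Fezf2*, *Tbr1* and *Bcl11b*), written after the values were seen, summed to 171 CPM in this library and to 20.9 to 68.9 CPM in the others. Their part in the results was not tested. Of the 268 genes of at least 5 CPM that were at 2 or more times every other library in this one, none was a guidance gene. Without it, *Dcc* went from 0.14 to −0.18, *Slit1* from 0.25 to −0.33, *Epha5* from 0.22 to −0.02, *Epha7* from 0.04 to −0.07 and *Ephb1* from 0.41 to 0.17 on the log2 scale. Of these 5 genes, 4 changed sign and *Ephb1* kept its sign at a smaller size.

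On the 9 libraries left, 39 guidance genes passed the filter and none reached an adjusted p of 0.05, which 6 of 16413 genes (0.0366%) did. At an unadjusted p under 0.05, 7 of the 39 (17.9%) were higher, against 3.69% of all genes, and 1 (2.56%) was lower, against 3.11%. The 7 were the same 6 genes and *Robo2*, and the gene that was lower was again *Unc5c*. The groups separated fully in 2 of the 38 genes (5.26%), against 2.48% of all genes. *Ephb3* was then at 60.5 ± 2.11 CPM in the KO-labelled libraries, all above the WT-labelled ones, and its log2 fold change was 0.35 (standard error 0.090, edgeR p = 0.00239, adjusted p = 0.354, exact permutation p = 0.0159). *Ntn3* was at 24.2 ± 1.27 CPM, likewise all above, with 0.34 (standard error 0.080, edgeR p = 0.00150, adjusted p = 0.304, exact permutation p = 0.0159). *Epha3* differed by 0.39 on the log2 scale (edgeR p = 0.00842, exact permutation p = 0.0476) and *Ephb2* by 0.19 (edgeR p = 0.00986, exact permutation p = 0.0317). *Efnb2* differed by 0.14 (edgeR p = 0.0298, exact permutation p = 0.0476) and *Robo2* by 0.25 (edgeR p = 0.0416, exact permutation p = 0.0794). *Unc5c* differed by −0.22 (edgeR p = 0.0173, exact permutation p = 0.0317), close to its value with all libraries. The edgeR adjusted p of these 5 genes lay between 0.489 (*Epha3*) and 0.711 (*Robo2*).

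The other genes of these pathways were read against the 3.68% of all genes tested that were higher and the 3.82% that were lower at an unadjusted p under 0.05. Of 36 partners of Eph and ephrin signalling, none passed an adjusted p of 0.05 in edgeR, 4 were higher and 1 was lower at an unadjusted p under 0.05, and their median log2 fold change was −0.01. *Vav3*, an exchange factor for small GTPases that Eph receptors recruit, was at 5.36 ± 0.384 and 6.80 ± 0.287 CPM (0.34 on the log2 scale, edgeR p = 0.00201, exact permutation p = 0.00794, the lowest possible). *Itsn1*, the exchange factor intersectin, was at 77.7 ± 4.34 and 89.4 ± 5.37 CPM (0.20, edgeR p = 0.00402, exact permutation p = 0.00794). *Sipa1l1*, a GTPase-activating protein that binds EphA4, differed by 0.24 (edgeR p = 0.0102, exact permutation p = 0.0238), the adaptor *Nck2* by 0.18 (edgeR p = 0.0161, exact permutation p = 0.0238) and the kinase *Fyn* by −0.14 (edgeR p = 0.0246, exact permutation p = 0.00794). Of 19 partners of Slit and Robo, 2 were higher, both of them GTPase-activating proteins that bind Robo: *Srgap2* by 0.10 (edgeR p = 0.0340, exact permutation p = 0.00794) and *Srgap3* by 0.26 (edgeR p = 0.00933, exact permutation p = 0.0238). Of 24 partners of netrin, UNC5 and neogenin tested, 2 were higher and 1, *Fyn* again, was lower. *Rgma*, a ligand of neogenin, was at 26.4 ± 3.36 and 33.3 ± 2.31 CPM (0.34 on the log2 scale, edgeR p = 0.00239, adjusted p = 0.367, exact permutation p = 0.0159), while its receptor *Neo1* differed by −0.03. *Trim67*, a neuronal ubiquitin ligase that binds DCC, differed by 1.62 (edgeR p = 0.0385, exact permutation p = 0.238) and by 0.48 without KO-labelled replicate 2. The medians of the last 2 lists were 0.02 and 0.10, and none of their genes passed an adjusted p of 0.05. KO-labelled replicate 2 was the highest library for 8 of the 36 Eph and ephrin partners, 6 of the 19 Slit and Robo partners and 11 of the 25 netrin, UNC5 and neogenin partners, against 17.9% of all genes tested.

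The markers of other tissues that the excised region can hold were read beside these results. At an unadjusted p under 0.05, 3 of 13 neuron genes, 3 of 9 chondrocyte genes and 1 of 15 endothelial genes were higher in the KO-labelled libraries, 1 of 10 meninges genes and 1 of 7 epidermis genes were lower, and no gene of the Schwann cell (10), skeletal muscle (8), macrophage and osteoclast (9) or erythroid (7) lists passed in either direction. Of all genes tested, 3.68% were higher and 3.82% lower. KO-labelled replicate 2 was the highest library for 11 of the 13 neuron genes and 5 of the 10 chondrocyte genes listed, against 17.9% of all genes tested. The 10 chondrocyte genes summed to 1373 to 1695 CPM in the WT-labelled and 1281 to 1686 CPM in the KO-labelled libraries. The 9 skeletal muscle genes summed to 25.0 to 923 CPM in the WT-labelled and 26.3 to 968 CPM in the KO-labelled libraries and the 9 epidermis genes to 15.6 to 29.1 and 12.9 to 21.8 CPM. The Schwann cell genes summed to 127 to 175 and 134 to 199 CPM. The part of these cell types in the values of the guidance genes was not tested.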

How the data were processed

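Bulk RNA-seq of excised AF tissue was analysed in 10 libraries, 5 per label. The authors deposited estimated counts per gene, unscaled and in part not whole, and no gene of the table summed to under 10. The submitters' processing notes name Partek and mm10, and the study made stranded libraries read from a single end. The aligner, counting tool and strand setting are not given in the sources used here. Gene positions are those of GENCODE M21 on GRCm38, which 22296 of the 23080 symbols and all 41 guidance genes matched in the table. The table gives an end 1 base past the last base, which was set back. Promoters are RefSeq windows on GRCm38.p6.

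The design assumed raw counts, so the estimated counts were rounded to whole numbers. In R 4.3.3, edgeR 4.0.16 kept 16267 genes by its expression filter (6813 left out) and scaled libraries by TMM (factors 0.900 to 1.13). Its quasi-likelihood test was fitted over all libraries without covariates, with Benjamini-Hochberg adjustment over all genes tested and a threshold of 0.05. The biological coefficient of variation was 18.9%. CPM are TMM-normalized, and log2 CPM used a prior count of 0.5. Exact permutation tests (scipy 1.17.1) were two-sided, on the difference of mean log2 CPM. Per-length levels used the longest protein-coding transcript, and the exon union, added after the data were seen, as an alternative. Alternatives were DESeq2 1.42.0 (size factors, Wald test), library totals alone, limma 3.58.1 voom with quality weights, other filters, an adjusted threshold of 0.1, the table without ribosomal RNA genes, the replicate number as a block, and each library left out. The scripts were tested on simulated counts with known changes. At an adjusted p under 0.05, edgeR recovered 75.3% of changes of 1 on the log2 scale and 34.2% of changes of 0.5. Smaller changes were not simulated.

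The genes, the pathway and cell type lists and the tests were chosen with earlier results of these data known, and 3 lists (forebrain neuron, fascia fibroblast, peripheral sensory neuron) after the values used here had been seen. Per-library values are given for genes at an unadjusted p under 0.05, for genes whose groups do not overlap and for the leader of each family, and pathway partners are named at an unadjusted p under 0.05. *Epha4*, *Ntn1*, *Dcc*, *Slit1*, *Ephb1* and *Epha5* were added after their values were seen. Any 2 libraries of the same label differed by more than sampling noise (chi-square per degree of freedom 8.14 to 99.3). The labels do not say that replicates came from separate litters.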

Additional observations from a re-analysis of the deposited data

Results flagged for a closer look

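In each of the 38 guidance genes tested, the highest and the lowest library of each label were compared with the rest of that label by the gap to the nearest library as a share of the whole range (Dixon's 95% critical value 0.71 for 5 libraries). Of 76 groups checked, 5 passed, and chance flags about 1 in 20 groups. In KO-labelled replicate 2, *Dcc* was at 11.5 CPM against 4.42 to 6.08 CPM in the other KO-labelled libraries, *Slit1* at 5.45 CPM against 1.37 to 1.90 CPM, and *Ephb6* at 19.3 CPM against 12.4 to 14.1 CPM. In KO-labelled replicate 1, *Ntn1* was at 57.6 CPM against 15.1 to 16.8 CPM, with a gap of 0.960 of the range. In WT-labelled replicate 1, *Slit3* was at 163 CPM against 149 to 153 CPM in the other WT-labelled libraries. KO-labelled replicates 1 and 2 are the libraries with the highest fascia fibroblast and forebrain neuron sums given above.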

How the results depend on the processing

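Between libraries of the same replicate number, deviations from the group means correlated at −0.22, 0.17, −0.25, 0.018 and −0.21 for numbers 1 to 5. No library correlated best with its own number. Other differences between libraries can hide a likeness of littermates, so this check cannot tell whether the numbers mark pairs. With the replicate block, 1 gene was called over the whole table, no guidance gene was called, and 4 guidance genes were higher and 1 lower at an unadjusted p under 0.05. Of all genes in that fit, 3.48% were higher and 3.14% lower at the same threshold. No guidance gene was called under any of the 18 alternative fits or at an adjusted threshold of 0.1. The number of genes called over the whole table was 3, became 95 with the DESeq2 Wald test and 1 with library totals alone, and ranged from 1 to 6 when each library was left out. It was 6 without KO-labelled replicate 2, and 1 without any of KO-labelled replicates 1, 3, 4 and 5 or WT-labelled replicates 3, 4 and 5. Guidance genes that were higher at an unadjusted p under 0.05 numbered 1 with library totals alone and 3 to 7 with a library left out, with 3 without KO-labelled replicate 5 or WT-labelled replicate 4. The share of all genes that were higher was 1.59% with library totals alone. With a library left out it ranged from 2.34%, without WT-labelled replicate 4, to 4.89%, and it was 4.07% without KO-labelled replicate 5. Guidance genes that were lower numbered 2 with the DESeq2 Wald test, 3 with library totals alone and 1 to 3 with a library left out. They numbered 3 without KO-labelled replicate 5 and 2 without KO-labelled replicate 1 or any of WT-labelled replicates 1, 3, 4 and 5. The share of all genes that were lower was 2.86% with the DESeq2 Wald test and 4.36% with library totals alone. With a library left out it ranged from 2.63%, without WT-labelled replicate 3, to 4.13%, without KO-labelled replicate 5. The median log2 fold change of the 38 genes was 0.039 with library totals alone and 0.049 with limma voom, and ranged from 0.059 to 0.14 with a library left out, the latter without WT-labelled replicate 1.

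Of 684 gene and setting pairs, 31 changed sign, in 13 genes, and 25 genes kept their sign throughout. With library totals alone, log2 fold changes became −0.013 (*Efna2*), −0.015 (*Efna4*), −1.2e-05 (*Efna5*), −0.0066 (*Efnb1*), −0.020 (*Ephb4*) and −0.0067 (*Ntn1*). With limma voom they became −0.092 (*Dcc*), −0.030 (*Efna4*), −0.041 (*Epha7*), −0.18 (*Ntn1*) and −0.0076 (*Slit1*), and with the replicate block −0.15 (*Ntn1*). With a library left out, they ranged from −0.18 to 0.24 (*Dcc*), −0.018 to 0.081 (*Efna2*), −0.042 to 0.065 (*Efna4*), −0.52 to 0.033 (*Epha1*), −0.024 to 0.38 (*Epha5*), −0.066 to 0.14 (*Epha7*), −0.017 to 0.077 (*Ephb4*), −0.089 to 0.015 (*Neo1*), −0.53 to 0.18 (*Ntn1*), −0.080 to 0.019 (*Robo4*) and −0.33 to 0.42 (*Slit1*). The cause was not tested. Genes under about 2 CPM, such as *Epha1* and *Unc5a*, rest on few counts, 11 to 68 per library.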
